A study of Drosophila melanogaster with 2 samples.

Results

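The 8 Hox genes of Drosophila melanogaster are lab, pb, Dfd, Scr and Antp in the Antennapedia complex, and Ubx, abd-A and Abd-B in the bithorax complex. They were chosen by name, not by binding, and are 8 of 13945 protein-coding genes on the 6 chromosome arms analysed. Each complex was taken from the outer end of its leftmost Hox gene to the outer end of its rightmost, and every peak summit in between was described. The Antennapedia complex spans 338 kb of 3R (6661427 to 6999228) and the bithorax complex spans 316 kb of 3R (16656623 to 16972236) in build dm6, together with 0.252% and 0.236% of the length of the arms. All 8 genes are read leftwards on the minus strand except Dfd.

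The peaks are those of Sry-delta, a zinc finger transcription factor, mapped by chromatin immunoprecipitation and sequencing (ChIP-seq). Transgenic flies carried Sry-delta fused at its C-terminus to green fluorescent protein (GFP), and the samples' descriptions name an anti-GFP antibody for the precipitation from sonicated chromatin. The single group holds 2 libraries, labelled biological replicates 3 and 4, each from whole embryos of both sexes aged 0 to 24 hours. No second genotype, stage or condition was present, so the comparisons are between peak lists, between the replicates, and between the Hox loci and the rest of the genome. The replicate 3, replicate 4 and pooled lists held 30000 peaks each and the optimal list held 6318, which were the 6318 pooled peaks of highest signal (lowest signal 99.8). Signal is the authors' own value for each peak, on 1 scale per list and without a stated unit. A rank of 1 is the highest signal of a list, and the sequencing depth is unknown. Whole embryos mix segments in which a given Hox gene is active with segments in which it is silent, and the lists average over them.

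Hox proteins are homeodomain transcription factors that give each segment of the body its identity, and the genes lie along the chromosome in the order of the segments they pattern. Their large regulatory regions are kept active or silent by Trithorax and Polycomb group proteins. In the bithorax complex these regions are parted by boundary elements, or insulators, at which zinc finger proteins such as CTCF, Pita and Su(Hw) are known to bind. The positions of the named boundaries were not among the annotations used here, so no peak is assigned to one of them.

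The 2 complexes carry 11 optimal peaks, 8 in the Antennapedia complex and 3 in the bithorax complex. The sequence under 5 of them is given here, 121 bases centred on the summit, read from the reference genome (Release 6, the same assembly as dm6) on the plus strand. The bcd upstream peak and the peak between Glut3 and abd-A had the highest signals of the 2 complexes, and the other 3 are those that held the core of the CTCF motif. Capitals mark that core, AGNNGGCGC, on either strand.
bcd upstream, chr3R:6759564-6759684: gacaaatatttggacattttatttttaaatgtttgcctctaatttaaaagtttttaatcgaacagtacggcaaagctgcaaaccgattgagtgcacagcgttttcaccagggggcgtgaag
Glut3 to abd-A, chr3R:16798804-16798924: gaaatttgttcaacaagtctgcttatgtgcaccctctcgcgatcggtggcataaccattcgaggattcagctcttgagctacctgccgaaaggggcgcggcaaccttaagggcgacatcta
Antp intron, chr3R:6912355-6912475: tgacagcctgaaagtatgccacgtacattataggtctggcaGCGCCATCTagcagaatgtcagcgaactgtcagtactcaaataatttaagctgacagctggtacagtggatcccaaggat
lncRNA:bxd intron, chr3R:16748699-16748819: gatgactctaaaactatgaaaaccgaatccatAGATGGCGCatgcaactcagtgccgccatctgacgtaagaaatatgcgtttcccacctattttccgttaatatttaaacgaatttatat
lncRNA:iab8 intron, chr3R:16919197-16919317: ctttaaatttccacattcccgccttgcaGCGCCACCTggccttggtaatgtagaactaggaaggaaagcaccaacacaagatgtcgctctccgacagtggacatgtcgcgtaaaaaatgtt

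Sequence matches were counted on both strands within 100 bp of each summit. The CTCF core was present at 3 of the 11 optimal summits (27.3%), against 3.45% of all optimal summits, 5.73% of optimal summits farther than 500 bp from a coding start, 2.64% of pooled summits and 1.78% of 201-bp tiles of 3R. Among the pooled summits of the complexes the share was lower, at 6 of 84 (7.14%). With 11 summits this is a description, and a match is not a binding site. Both complexes also held many cores without an optimal summit: 29 lay in the Antennapedia complex and 32 in the bithorax complex, of which 1 and 2 were within 100 bp of an optimal summit. In the Antp and lncRNA:bxd introns the core overlaps GCCAT, the core of the motif of the Polycomb group protein PHO, while the lncRNA:iab8 window does not hold it. The PHO core was found at 4 of the 11 summits (36.4%), near its 36.2% of tiles.

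The consensus to which Sry-delta binds in vitro was not found with up to 2 mismatches at any of the 11 summits. It was found at 6.70% of all optimal summits and 4.04% of those away from coding starts, and beside such shares 0 of 11 says little. Over the whole complexes there were 30 matches in the Antennapedia complex and 32 in the bithorax complex, of which 2 and 1 were within 100 bp of a pooled summit. The DNA replication-related element TATCGATA, which marks many housekeeping promoters, was at 948 of all 6318 optimal summits and at 0 of the 11. Away from coding starts, where 10 of the 11 lie, it was at 60 of 1535 optimal summits (3.91%). Beside that share, 0 of 11 again says little. The shorter CGATA, which lies inside TATCGATA and forms part of the BEAF-32 motif, was at 4 of the 11 (36.4%) against 53.6% of all optimal summits and 32.2% of those away from coding starts. GAGAG, bound by GAGA factor, was at 5 of 11 (45.5%) against 19.5% and 25.8%. At the pooled summits of the complexes GAGAG was at 22 of 84 (26.2%), near the 23.7% of all pooled summits and the 23.7% of tiles of the complexes.

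None of the 8 Hox genes had an optimal summit within 500 bp of an annotated start site. The exact 95% interval of 0 of 8 reaches 36.9%, and 39.0% of all protein-coding genes had such a summit. Neighbouring genes share their surroundings, so the 8 are not independent draws. From the start site to the nearest optimal summit the distance was 3313 bp for lab, 3497 bp for Antp, 14333 bp for Ubx, 14419 bp for Abd-B, 15089 bp for Dfd, 17561 bp for pb, 29241 bp for abd-A and 41580 bp for Scr. The Hox median was 14754 bp and the median of all coding genes 2640 bp, but a distance as long as that of Scr is not rare, since 9.34% of coding genes lie farther from an optimal summit. For lab and Abd-B the nearest optimal summit lies outside the complex, at the promoters of agt and CG18622.

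In the longer lists some Hox promoters carried weak summits. In the pooled list lab, Scr and Antp had a summit within 500 bp of a start (3 of 8, 37.5%), where 58.1% of coding genes did. The replicate 3 list gave Scr, Antp and Ubx, against 58.4% of coding genes, and the replicate 4 list gave lab, Scr, Antp and Abd-B, against 58.3%. Scr and Antp were thus the Hox genes with a start-site summit in both replicates, and pb, Dfd and abd-A had none in any list.

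Antp, which specifies the middle of the thorax, had the highest start-site peak of the 8. At its most downstream start (6932840) the pooled signal was 46.4 (rank 11616), the replicate 3 signal 20.0 (rank 14402), and the replicate 4 signal 39.9 (rank 9039). The pooled −log10 q value was 2.31, so this was the only Hox start-site peak with a pooled q value below 0.01. Its other starts, at 6958370 and 6999228, had no summit within the window in any list.

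lab, which acts in the head and midgut, had a pooled summit 33 bp upstream of its distal start, with signal 35.0 and rank 15217. Replicate 4 held that summit with signal 23.5 (rank 14272), and replicate 3 held no peak there. A weaker pooled summit, of signal 22.0, lay 240 bp downstream of the start at 6663454 and overlapped no peak of either replicate. Scr, which acts in the labial and prothoracic segments, had pooled summits 213 bp upstream of one start (signal 32.7, rank 16309) and 248 bp downstream of the other (signal 28.6, rank 18846). Replicate 3 had peaks at both Scr starts (19.7 and 15.6) and replicate 4 had one at the distal start alone, of signal 11.6 and rank 29628, near the end of its list.

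In the bithorax complex each start-site summit came from a single replicate. Ubx, which specifies the posterior thorax, had a replicate 3 summit 209 bp upstream of its start, with signal 13.4 and rank 23717, and the nearest replicate 4 summit was 14317 bp away. Abd-B, which specifies the most posterior segments, had a replicate 4 summit 35 bp from the start at 16934242, with signal 30.8 and rank 11100. abd-A, which acts in the anterior and middle abdomen, came nearest to the window without entering it, with summits 632 bp (pooled, signal 27.2), 612 bp (replicate 3, 19.9) and 787 bp (replicate 4, 13.9) downstream of its start at 16829752.

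The genes pb, which patterns the mouthparts, and Dfd, which patterns the maxillary and mandibular segments, had no summit near their starts. The nearest pooled summit to the start of pb was 17561 bp upstream, the bcd peak, and replicate 4 alone held a nearer peak, at 9896 bp. For Dfd the nearest pooled summit was 14638 bp upstream. Dfd was also the Hox gene whose 10.6 kb body held no summit in any of the 4 lists.

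**Figure D1:**
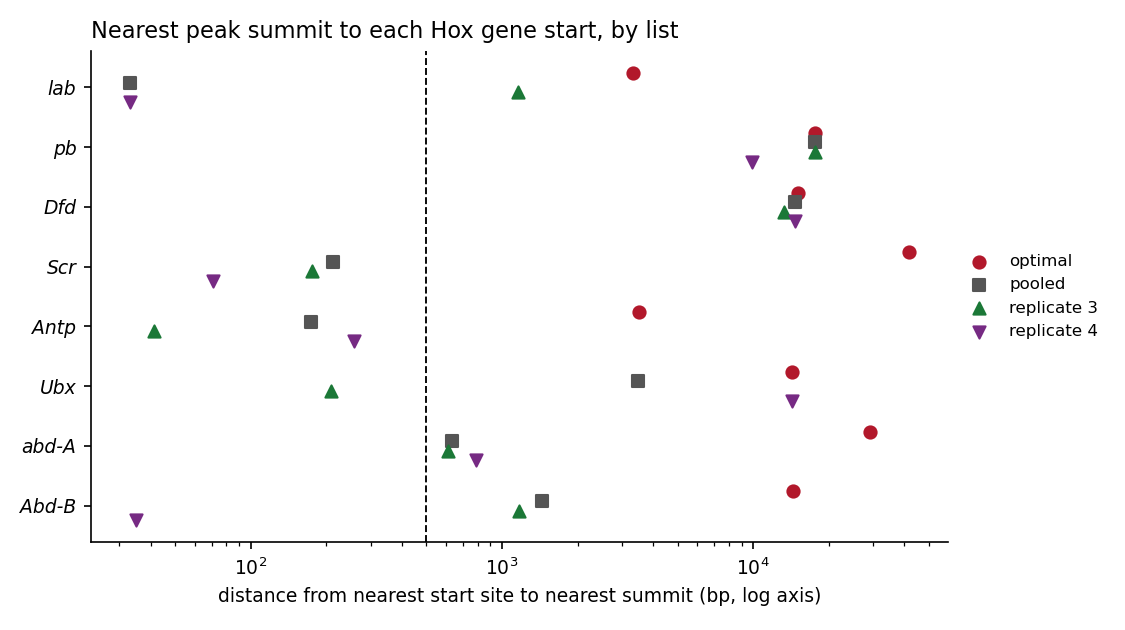
Distance in bp (log axis) from the start site of each Hox gene to the nearest summit of the optimal, pooled, replicate 3 and replicate 4 lists; the dashed line is the 500 bp window. All 8 optimal points lie right of the line, and the Scr and Antp points of the other 3 lists lie left of it.

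Away from the Hox promoters, the Antennapedia complex held 8 optimal peaks, and 7 of them lay farther than 500 bp from a coding start. The highest was not at a Hox gene. It lay 158 bp upstream of bcd, the gene for the maternal anterior determinant Bicoid (6759373 to 6759845), with signal 480 and rank 1698 in the pooled and optimal lists. Its signal was 200 in replicate 3 (rank 1791) and 289 in replicate 4 (rank 1697), so its rank hardly moved between libraries.

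Antp held 5 of the 8 optimal peaks within its 103 kb body, and no other Hox gene held more than 1. The summits at 6908262, 6912415, 6914541 and 6920195 lie downstream of all its starts, toward the end of the gene, and the summit at 6936337 lies 3497 bp upstream of the most downstream start. The first of these is in an annotated 3′ UTR and the other 4 are in introns. All 5 also fall within CG46458, a gene annotated over the same DNA and strand. Which of the overlapping genes the 3′ UTR belongs to is not given here. Their pooled signals ran from 106 to 147 and their ranks from 4687 to 6029, in the lower part of the optimal list.
Replicate 3 signals of these 5 peaks ran from 28.7 (rank 9469) to 55.4 (rank 5280) and replicate 4 signals from 63.9 (rank 6299) to 87.5 (rank 4898). All 5 were present in both libraries. The peak upstream of the start site differed most in rank, at 9469 in replicate 3 and 5089 in replicate 4.

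The other 2 optimal peaks of the Antennapedia complex lie near pb and Dfd. The summit at 6709036 is in an intron of pb, with pooled signal 158 (rank 4409), 58.9 in replicate 3 and 95.9 in replicate 4. The summit at 6806925 is between Dfd and Scr, 15089 bp downstream of the Dfd start, with pooled signal 168 (rank 4213), 63.1 in replicate 3 and 103 in replicate 4. Their ranks were 5009 and 4747 in replicate 3 and 4542 and 4276 in replicate 4, so they kept a similar place in both lists.

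Below the optimal set the pooled list added 50 summits. The body of Antp held 15 pooled summits, 10 of them below the optimal set. Between pb and Dfd there were 13 pooled summits in 49.8 kb, among them the bcd peak and those at Ama, the gene for the cell adhesion protein Amalgam. The higher Ama summit lay 297 bp downstream of its start with signal 92.9 (rank 6662), just under the lowest optimal signal. Between Dfd and Scr there were 15 in 20.7 kb, several of them within lncRNA:CR42651. The body of lab held 8, the highest being 96.6 (rank 6472) and 88.9 (rank 6868) in an intron, and pb held 4, with a second intronic summit of 87.0 (rank 7012). From Scr to Antp, a stretch of 46.3 kb that contains the pair-rule gene ftz, there was no pooled summit, and the replicate lists held 2 and 3 there. A replicate 3 peak 6680 bp downstream of the ftz start (signal 14.5, rank 21655) overlapped a replicate 4 peak (signal 35.9, rank 9825).

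**Figure D2:**
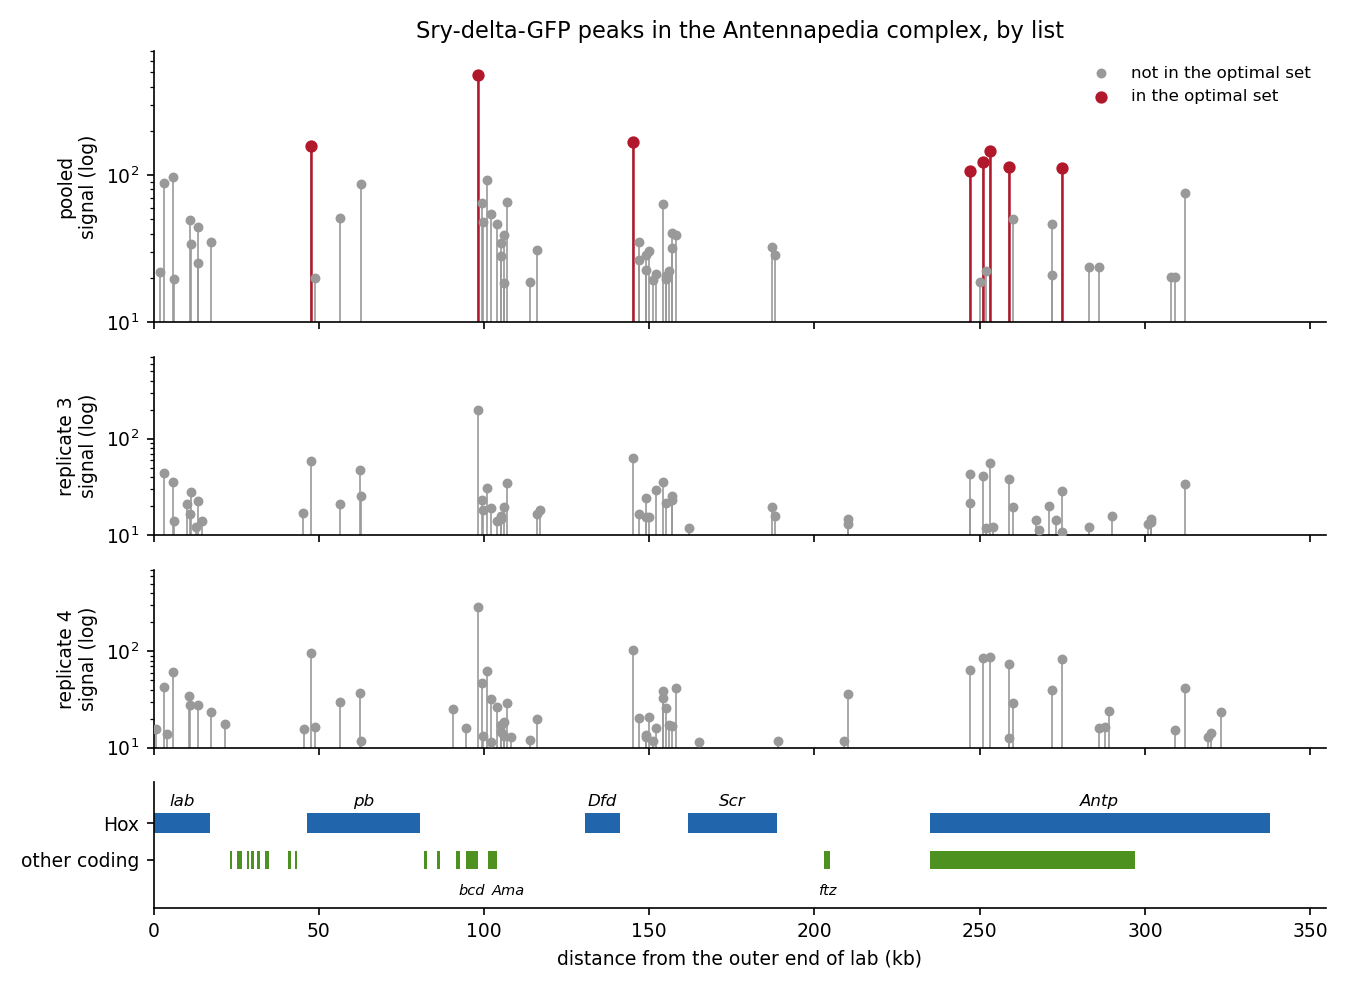
Peaks of the Antennapedia complex by distance in kb from the outer end of lab, with signal on a log axis that starts at 10 for the pooled, replicate 3 and replicate 4 lists, and the bodies of the Hox genes and other coding genes below. The 8 optimal peaks (red) fall at pb, upstream of bcd, beyond Dfd and, 5 of them, within Antp.

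The bithorax complex held 3 optimal peaks, all between coding genes and none within a Hox gene. The highest lay between Glut3, annotated as a glucose transporter gene, and abd-A (16798501 to 16799075), 10553 bp beyond the Glut3 start and 29241 bp beyond the abd-A start. Its signal was 432 in the pooled list (rank 1861), 134 in replicate 3 (rank 2535) and 306 in replicate 4 (rank 1600). It ranked close to the bcd peak in the pooled list.

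The peak with summit 16919257 lies in an intron of lncRNA:iab8, a long non-coding RNA of the interval between abd-A and Abd-B, 14985 bp beyond the nearest Abd-B start. Its signal was 191 in the pooled list (rank 3805), 56.9 in replicate 3 (rank 5145) and 131 in replicate 4 (rank 3506). The peak with summit 16748759 lies in an intron of lncRNA:bxd, the non-coding RNA upstream of Ubx, 14333 bp from the Ubx start and 2575 bp from that of CG31275. Its signal was 115 in the pooled list (rank 5690), 36.4 in replicate 3 (rank 7546) and 79.7 in replicate 4 (rank 5306). All 3 bithorax peaks, like all 8 optimal peaks of the Antennapedia complex, had a better rank in replicate 4 than in replicate 3. The share of all optimal peaks with that order is not given here, and both orders occurred among the optimal peaks within 100 kb of the complexes.

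The bithorax complex held 26 pooled summits in all, the 3 optimal ones included, and each was farther than 500 bp from a coding start. The interval from abd-A to Abd-B held 14 in 97.2 kb, most of them within MSAmiP and lncRNA:iab8, which overlap on the map. The replicates differed there, with 5 summits in replicate 3 and 17 in replicate 4. The highest below the optimal set, at 16869440, had pooled signal 88.2 (rank 6922) and replicate 4 signal 64.7 (rank 6234), and replicate 3 held no peak there. Upstream of Ubx, a second summit within lncRNA:bxd had pooled signal 81.7 (rank 7383), 26.9 in replicate 3 and 56.1 in replicate 4.
Within the Hox genes of this complex the pooled summits were few and low. Ubx held 4 in 77.8 kb, the highest with signal 54.9, abd-A held 1 of signal 27.2 and Abd-B held 1 of signal 31.2. The replicate lists held more in the same bodies, 10 and 6 in Ubx, 3 and 4 in abd-A, and 4 and 2 in Abd-B, for replicates 3 and 4.

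**Figure D3:**
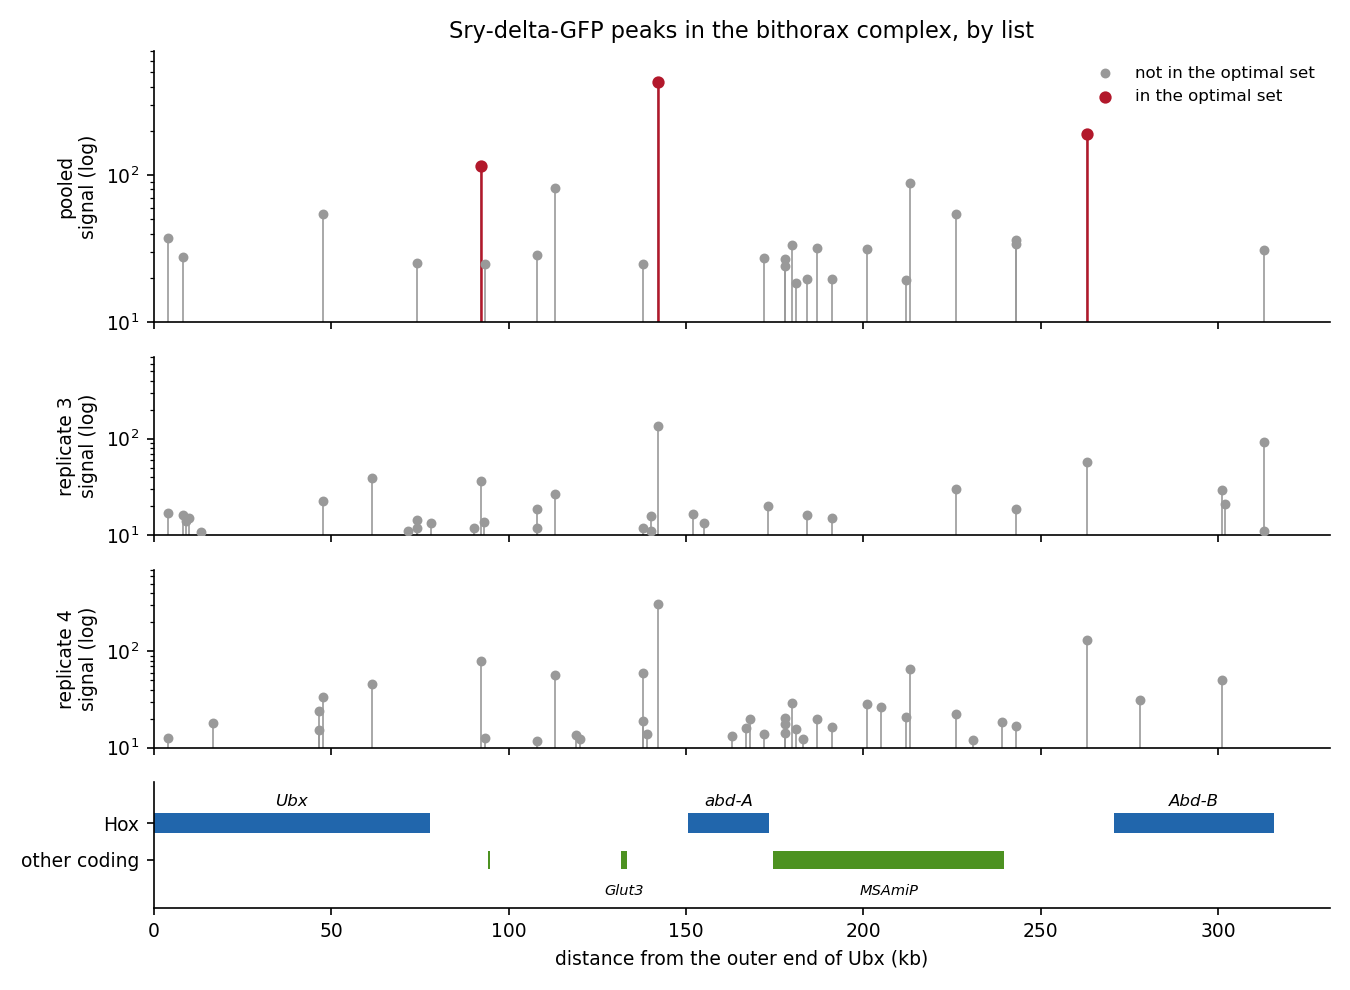
Peaks of the bithorax complex by distance in kb from the outer end of Ubx, drawn as for the Antennapedia complex, with signal on a log axis that starts at 10. The 3 optimal peaks (red, pooled signals 115, 432 and 191 from left to right) fall between the Hox genes.

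The optimal summits next to the complexes lay close by on the left and farther away on the right. The last optimal summit left of lab was 1.29 kb outside the complex, at the promoter of agt (signal 168), a DNA repair gene. The last one left of Ubx was 0.726 kb outside, at the promoter of modSP (signal 229), a serine protease gene of the Toll pathway. On the right, the first optimal summit was 68.1 kb beyond Antp, at the promoter of CG1965, and at signal 4436 it ranked 20 of 6318. Beyond Abd-B it was 14.4 kb away, in the 5′ UTR of CG18622 (signal 275), and at 30.2 kb a summit at the promoter of Sf3a1, a splicing factor gene, had signal 4519 and rank 18.

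Within 100 kb on each side, nearly all optimal peaks were at promoters. Left of the Antennapedia complex there were 3, at Taf1, CG1307 and agt, all within 500 bp of a start. On its right there were 7, of which 5 were within that distance of a start, at CG1965, Ufl1, CG1943, alphaTub84B (a tubulin gene, signal 1803) and e(y)2b. Left of the bithorax complex all 10 were, at CG14903, CG10340, Fas1, nonA-l, Arl6IP1, CCT3 (with 2 summits), Mettl4, CG14907 and modSP. On its right 6 of 7 were, at CG18622, CG3534, Sf3a1, Trm7-32, bdwf and Patr-1, and the other was in an intron of Dad. Over the whole optimal list 24.3% of summits were farther than 500 bp from a coding start, against 10 of the 11 in the complexes.

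Fewer optimal peaks per Mb lay in the complexes than on the rest of 3R, and the interval for the bithorax complex lies below the value for the rest of the arm while that for the Antennapedia complex includes it. The density was 23.7 per Mb in the Antennapedia complex (95% Poisson interval 10.2 to 46.7) and 9.51 in the bithorax complex (1.96 to 27.8), against 45.9 on the rest of 3R (43.6 to 48.3). Counting only summits farther than 500 bp from a coding start, it was 20.7 (8.33 to 42.7) and 9.51 (1.96 to 27.8), and on the rest of 3R it was 315 summits in 31.4 Mb (8.95 to 11.2 per Mb). For both complexes together that density was 15.3 (7.34 to 28.1), and its interval includes the value for the rest of the arm. The complexes also hold fewer genes, with 59.2 and 19.0 coding genes per Mb against 108 on the rest of 3R, and their part in the lower density was not tested. The intervals cover counting error alone.

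**Figure D4:**
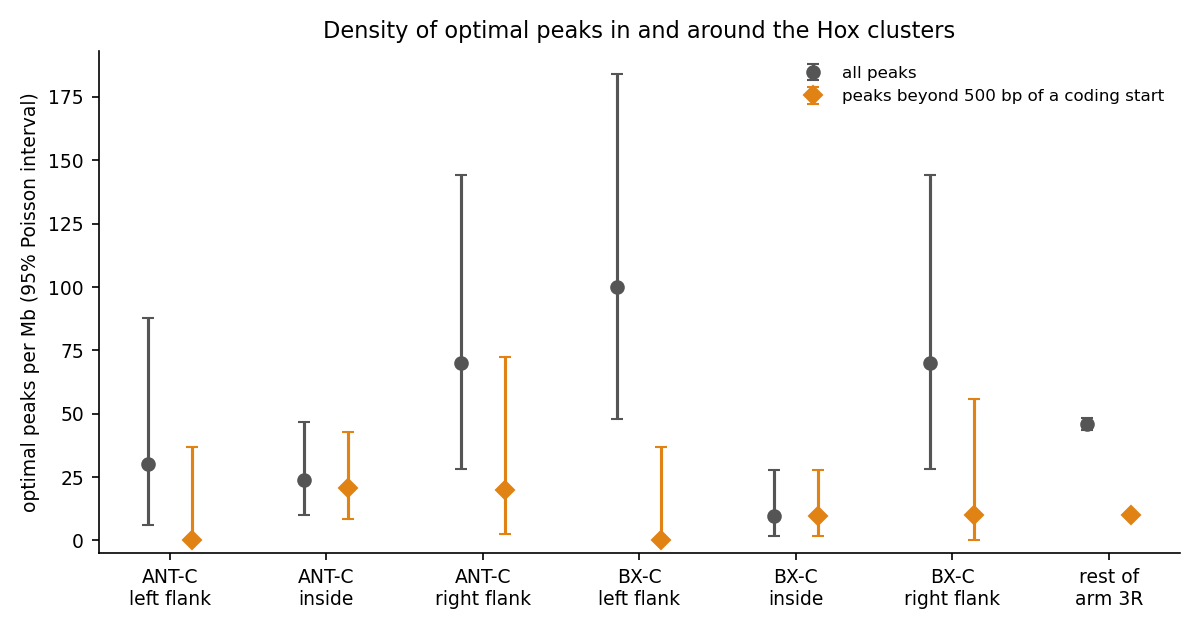
Optimal peaks per Mb inside each complex (ANT-C, Antennapedia; BX-C, bithorax), in the 100 kb on each side and on the rest of 3R, for all peaks and for those farther than 500 bp from a coding start. Bars are 95% Poisson intervals, and the values for all peaks are 23.7 and 9.51 inside the complexes and 45.9 on the rest of the arm.

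Long stretches of both complexes held no optimal summit. The longest that touched the Antennapedia complex ran for 131 kb, from the peak upstream of the Antp start at 6932840 to the CG1965 promoter, and was the 47th longest of 1453 on 3R. From the peak beyond Dfd to the first in Antp there were 101 kb, a stretch that contains Scr and ftz. In the bithorax complex 120 kb separated the peak at 16798864 from that in lncRNA:iab8, with abd-A in between, and 92.9 kb separated modSP from the lncRNA:bxd peak, with the whole of Ubx in between. The median distance between neighbouring optimal summits on 3R was 5.86 kb. In the pooled list the longest stretches without a summit were 58.5 kb and 50.8 kb. The first ran from the Scr start to the first optimal peak in Antp, and the other from the lncRNA:iab8 peak across most of Abd-B. The first contains the peak near ftz that both replicate lists held.

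The cluster peaks recurred between replicates as often as peaks elsewhere. Of the 84 pooled peaks in the 2 complexes, 57 overlapped a peak in both replicate lists by at least 1 bp (67.9%, exact 95% interval 56.8 to 77.6), and the share over all pooled peaks was also 67.9%. It was 44 of 58 in the Antennapedia complex and 13 of 26 in the bithorax complex. All 11 optimal peaks were in both lists, as were 99.7% of all optimal peaks. The pooled list was made from the same libraries, so this overlap is no independent repeat. A q value below 0.01 was reached by 24 of 58 and 7 of 26 pooled peaks, against 41.0% of the pooled list.

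Other genes within the complexes were seldom marked at their starts. Of the 18 other coding genes, bcd alone had an optimal start-site summit (5.56%, interval 0.141 to 27.3, against 39.0% of coding genes), and the pooled list added Ama. Those without any include the homeobox genes zen, zen2 and ftz and the cuticle protein genes Edg84A and Ccp84Aa to Ccp84Ag. Of 36 named non-coding genes, 0 had an optimal start-site summit (interval 0 to 9.74%), against 8.05% of such genes in the annotation. In the pooled list 7 had (19.4%, interval 8.19 to 36.0), against 30.4%. Both intervals for the non-coding genes include the share in the annotation. Among the 7 were mir-10 (signal 22.8, rank 23906) and lncRNA:iab8 (signal 36.2, rank 14679).

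Genes for the regulators of Hox expression had start-site summits in larger shares than coding genes at large. Of 38 Polycomb and trithorax group genes, 30 had an optimal start-site summit (78.9%, interval 62.7 to 90.4) and 37 a pooled summit. The highest signals were at kis (3434, rank 61), a chromodomain helicase gene, and fs(1)h (3208, rank 76), the BET bromodomain gene. Next came Bap60 (2971), a subunit of the Brahma complex, Caf1-55 (2318), a histone-binding subunit of several complexes, Scm (2201), of the Polycomb group, and mor (2023), another Brahma complex subunit. Pc itself, the founding member, had signal 968 (rank 888), trx 395 (rank 2031) and E(z), the H3K27 methyltransferase, 103 (rank 6165).

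Genes for proteins known at bithorax boundaries, or for their partners, showed a share of the same size. Of these 19, 15 were marked in the optimal list (78.9%, interval 54.4 to 93.9) and 16 in the pooled list. Beside fs(1)h, which is on both lists, the highest were pita (2194, rank 222), CTCF (1235, rank 654), Chro (1218, rank 667), Cp190 (1031, rank 801) and mod(mdg4) (919, rank 950). The 4 without an optimal summit were su(Hw), Elba1, Elba2 and Elba3, and Elba2 had a pooled one of signal 69.9.

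Homeobox genes outside the 8 had optimal start-site summits in a smaller share than coding genes at large. Their pooled share was above that of coding genes, but no interval was made for it. Of 61 listed, 9 had an optimal start-site summit (14.8%, interval 6.98 to 26.2) and 43 a pooled one (70.5%). The 6 highest were achi (832), bcd (480), exd (328), tin (319), NK7.1 (228) and vis (216), and the rest of the 9 were ey, eyg and oc. Of 8 genes for cofactors and partners of Hox proteins, exd, the Pbx homologue, alone had an optimal summit (12.5%). The interval of that share, 0.316 to 52.7, includes the 39.0% of all coding genes. In the pooled list 6 of the 8 had a summit, among them hth with signal 63.7 (rank 8903). These lists share members and were read against the 39.0% and 58.1% of all coding genes in the 2 lists, with no test.

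**Figure D5:**
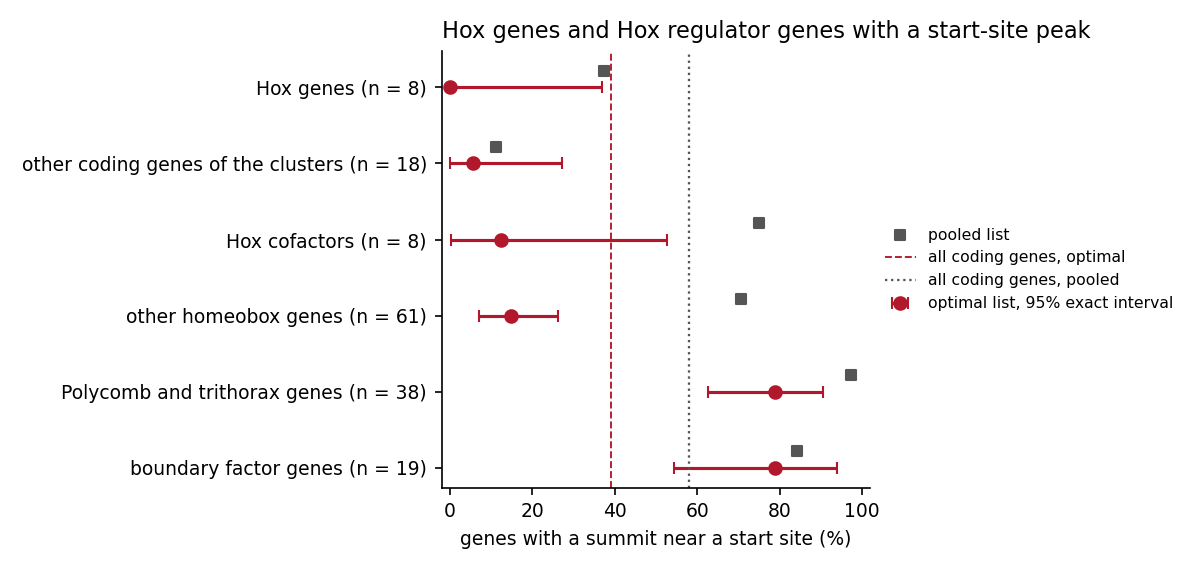
Percent of the genes of each list with a summit within 500 bp of a start, in the optimal list (circles, with exact 95% intervals) and the pooled list (squares); vertical lines give the share of all coding genes, 39.0% and 58.1%. Hox genes stand at 0% in the optimal list, and Polycomb and trithorax genes at 78.9%.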

How the data were processed

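Peak lists in build dm6 were used for each library, for both pooled and for the optimal set. The deposited README files say that peaks were called against a control, library by library and on both alignments together, and that the optimal set came from these lists through the irreproducible discovery rate (IDR). Which caller, aligner and IDR threshold were used is not given in these sources. No input library was analysed here. The antibody field of the labels names Sry-delta and the descriptions name GFP. The signal value of each peak, its −log10 q value and its summit offset are the authors' deposited values. Signal has 1 scale per list and its unit is not stated. It was used to rank and describe peaks within a list. The −log10 q value has a ceiling (4.25 in the pooled list) that all 11 optimal peaks of the complexes reach. The depth is unknown. Of the pooled peaks, 81.1% had the same width of 484 bp, so peak width was not interpreted. Lists in build dm3 were not used here.

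A summit is the deposited start plus the offset, in 1-based coordinates. Genes, transcripts and start sites are those of Ensembl release 115 on arms 2L, 2R, 3L, 3R, 4 and X, and a gene counts as marked with a summit within 500 bp of any start. Intervals of shares are exact Clopper-Pearson and those of densities exact Poisson, both at 95% and for counting error alone. With 1 group there was no contrast and no test. Motifs were sought within 100 bp of a summit, and the Sry-delta consensus with up to 2 mismatches. The searches for marked genes, overlaps and motifs were tested on simulated data.

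The members, gene lists, motifs and alternatives were chosen with earlier results of these data known. Named genes were the 8 Hox genes, cluster genes with an optimal start-site summit, the gene nearest each optimal peak in or within 100 kb of a complex and nearest the 10 highest pooled peaks, and up to 6 marked members of each list with the highest signal. Genes named beyond this rule, such as Pc, trx, E(z), hth, mir-10 and the members without a summit, were chosen after their values were seen. Of 127 list entries, 2 were matched by a synonym and 1, calypso, matched no gene. Python 3.11.15, pandas 2.3.3, numpy 2.4.6, scipy 1.17.1 and matplotlib 3.10.9 were used.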

Additional observations from a re-analysis of the deposited data

How the results depend on the processing

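Of 50 alternative values, 41 stayed near the main value. For counts this meant within 1.5 times the main count, and for the share of pooled cluster peaks it meant within its interval. No Hox gene had a start-site summit in the optimal list with a window of 250 or 1000 bp, with the most upstream start alone, among the 3159 optimal peaks of highest signal, or among the 6318 highest-signal peaks of either replicate. The pooled list gave 3. The Antennapedia complex held 1 of those 3159 peaks, and 5 to 8 of the 6318 highest-signal peaks when 1 replicate was left out, the lower count being that of replicate 3 alone. The bithorax complex held 1 of the 3159, and 8 optimal peaks when it was widened by 10 kb on each side, which takes in promoters left of Ubx. The share of pooled cluster peaks in both replicates was 56.0% with an overlap of at least 50% of the shorter peak, 56.0% with the pooled summit inside the replicate peak, and 77.8% for the 15000 peaks of highest signal in each list. The shares of all pooled peaks by the same rules are not given here, so these values cannot be compared with peaks elsewhere. Ranked by −log10 q the median optimal peak of the complexes had rank 1, since all 11 share the top value. No paired analysis was possible because the series has a single group. With 2 libraries of unknown depth and lists of fixed length (30000 peaks), a peak missing from a list does not show that binding was absent.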

Other observations

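The highest cluster peak found in a single library lay within Abd-B. In replicate 3 its summit was at 16969743, 1169 bp upstream of the Abd-B start at 16968574, with signal 92.6 and rank 3448, and replicate 4 held no peak there. Of the 3448 replicate 3 peaks at or above that rank, 7 had no replicate 4 peak (0.203%). The pooled list held a peak at that place with summit 16970012, signal 31.2 and rank 17137. In the other direction, the replicate 4 peak at 16869439 within MSAmiP and lncRNA:iab8 had rank 6234, and 74 of 6234 peaks at or above it (1.19%) had no replicate 3 peak.

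A pair of bithorax peaks ranked in the top 10000 of both replicate lists and overlapped no pooled peak. The summit at 16718157 in a Ubx intron had signal 38.6 in replicate 3 (rank 7161) and 46.1 in replicate 4 (rank 8037). The summit at 16957985 in an Abd-B intron had signal 29.0 in replicate 3 (rank 9342) and 49.8 in replicate 4 (rank 7614). Of 8405 replicate 3 peaks that ranked in the top 10000 of both lists, 28 overlapped no pooled peak (0.333%), and these 2 were among the 19 such peaks in the complexes. Without the rank limit, 562 of 21125 replicate 3 peaks shared with replicate 4 overlapped no pooled peak (2.66%). In the complexes 5 of 59 did so, some of them in the Antennapedia complex. The reason was not tested.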
